A study of Mus musculus with 11 samples.

Results

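Adding the PCS1-MRCS1 deletion to mice that already lack *Cilk1* was examined by comparing 3 compound mutant libraries with 4 *Cilk1*-/- libraries, 7 of the 11 libraries of the study, over all 16755 genes of the deposited table. The 4 wild-type libraries served for the spread and as a reference level. Each library was made from maxillary molar tooth germs at embryonic day 14.5 (E14.5), with n = 6 per biological replicate. The labels do not state whether 6 counts germs or embryos, or whether replicates came from separate litters, so the p-values measure only the spread between these libraries. Both groups compared lack *Cilk1* (exon deletion made with the ubiquitous EIIa-Cre line, and therefore present in all tissues), and the compound mutant is in addition homozygous for a 70-kb deletion that removes PCS1 and MRCS1. Mice with the PCS1-MRCS1 deletion alone were not analysed here, so it cannot be told whether the deletion acts in the same way when *Cilk1* is present. The sample numbers fall into separate runs, here called label sets, and what these stand for is not stated. All 3 compound mutant libraries share a label set with replicate 4 of *Cilk1*-/- and of wild type. Replicates 1 to 3 of *Cilk1*-/- and of wild type are in the other set, so the label set and the genotype are partly confounded.

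Shh is a secreted signal made in the dental epithelium, mainly in the enamel knot, the signalling centre of the tooth germ. It binds the receptor Ptch1 and releases Smo, which acts through Gli transcription factors at the primary cilium. *Ptch1*, *Gli1* and *Hhip* are transcribed in response and are used as readouts of the pathway. Cilk1 is a kinase that controls the length of the cilium, and PCS1 and MRCS1 are distant enhancers that drive *Shh* in the oral epithelium. The comparison therefore asked what a loss of oral *Shh* enhancers adds once the cilium is already abnormal. Values are on the deposited log2 scale, near log2(value + 1) of a length-normalized level, and a difference is the compound mutant mean minus the *Cilk1*-/- mean on that scale, which understates changes of low genes. In bulk tissue, fewer cells of a type and less RNA per cell cannot be told apart.

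*Cilk1*, listed under its older symbol *Ick*, was read first. *Ick* was 2.67, 2.65 and 2.60 in compound mutant replicates 1 to 3, 2.72 to 2.86 in the *Cilk1*-/- libraries and 3.45 to 3.60 in wild type. All 7 mutant libraries lay below all wild-type libraries, which matches their labels, and the difference between the 2 mutants was -0.16 (SE 0.0542, adjusted p = 0.125).

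The 3 compound mutant libraries differed from each other more than the other libraries did. Replicate 1 held 270 genes more than 1 log2 unit above every other library, against 3 genes for replicate 2, 15 for replicate 3 and 0 to 2 for the other 8 libraries. Those genes of replicate 1 included the cartilage collagen gene *Col2a1*, at 8.62 against 3.44 to 4.88 in the other 10 libraries, and the neuronal gene *Stmn2*, at 5.95 against 1.03 to 3.34. Replicate 3 was low in erythroid RNA, with the embryonic globin *Hbb-y* at 1.79 against 4.82 to 7.73 elsewhere. The SD of all genes around the genotype mean was 0.207 to 0.26 in the compound mutant and 0.0856 to 0.117 in *Cilk1*-/-. The *Cilk1*-/- and wild-type values do not vary independently, as given below, and the part of this in their smaller SD was not tested. Because replicate 1 stood apart, the main counts are also given without that compound mutant library.

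A gene was called when its adjusted p, from limma with the Benjamini-Hochberg adjustment over all genes, was under 0.05 and its fold change was at least 1.5. With all libraries, 65 genes were lower (0.388% of the genes tested) and 26 were higher (0.155%) in the compound mutant. Without compound mutant replicate 1, 60 genes were lower (0.358%) and 24 were higher (0.143%). Of these, 47 were called in the same direction both times, 38 lower and 9 higher, which is 51.6% of the first set and 56% of the second. The sets share libraries, so this count is a description. The median difference over all genes was 0.00281, and -0.00118 without replicate 1.

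These calls depended on how the spread was estimated. When only the 2 mutant genotypes entered the fit, 1 gene was lower (*Mir335*) and 0 were higher, with 148 lower and 103 higher at an unadjusted p under 0.05 with the same 1.5-fold minimum. With the label set as a term, or with one weight per genotype so that the compound mutant could vary more, *Mir335* was again the 1 lower gene and 0 were higher (at an unadjusted p under 0.05 with the same 1.5-fold minimum, 118 and 107 with the label set, 136 and 233 with the weights). In addition, 257 genes hold a value below 0, which log2(value + 1) cannot give, and same-numbered wild-type and *Cilk1*-/- libraries deviated in opposite directions (r = -0.74 to -0.89 over genes), so the deposited values of these 2 groups do not vary independently. The effect of this on the p-values was not tested.

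Hedgehog readouts were lower on average but not called. *Shh* (chr5:28456815-28467256, minus strand, mm10) was 3.66 and 4.02 in compound mutant replicates 1 and 2 and 6.51 in replicate 3, against 4.79, 5.0, 4.93 and 5.66 in *Cilk1*-/- and 4.18 to 5.18 in wild type. Replicates 1 and 2 thus lay below all the others and replicate 3 above all of them, with a difference of -0.37 (SE 0.568, adjusted p = 0.738). The sign turned on single libraries, at 0.17 without replicate 1 (adjusted p = 0.898) and -1.26 without replicate 3. *Rnf32*, a neighbour of *Shh*, was 2.10, 1.90 and 2.71 against 1.42 to 1.75 in *Cilk1*-/-. The groups did not overlap for *Rnf32*, and the difference of 0.63 (SE 0.177) had an adjusted p of 0.0739.

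*Ptch1*, the receptor, was 3.82, 4.45 and 4.95 in the compound mutant, 5.11 to 5.26 in *Cilk1*-/- and 5.96 to 6.18 in wild type. The 3 groups did not overlap, and the difference between the mutants was -0.77 (SE 0.198, adjusted p = 0.0606; -0.48 without replicate 1, adjusted p = 0.0749). *Hhip*, which binds and restrains Hedgehog ligands, was 1.23, 1.38 and 1.57 against 1.77 to 2.05 in *Cilk1*-/- and 2.16 to 2.51 in wild type. Its difference of -0.49 (SE 0.107) had an adjusted p of 0.0405 but was smaller than the minimum fold change, and the adjusted p was 0.0837 without replicate 1. *Gli1*, a transcription factor and target, was 4.51, 5.48 and 5.36 against 5.46 to 5.79 (difference -0.53, adjusted p = 0.14; -0.23 without replicate 1, adjusted p = 0.218). *Sostdc1*, an inhibitor of Bmp and Wnt signals around the germ, was 5.46, 6.36 and 6.24 against 6.29 to 6.77 (-0.58, adjusted p = 0.109; -0.30 without replicate 1, adjusted p = 0.175). *Foxf2*, a mesenchymal transcription factor, was 2.76, 3.60 and 3.37 against 3.45 to 3.88 (-0.38, adjusted p = 0.227; -0.14 without replicate 1, adjusted p = 0.583). In *Gli1*, *Sostdc1* and *Foxf2* the groups overlapped, and replicate 1 was the lowest compound mutant library for all of these readouts, while *Ptch1* and *Hhip* were highest in replicate 3, the library with the highest *Shh*.

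**Figure D1:**
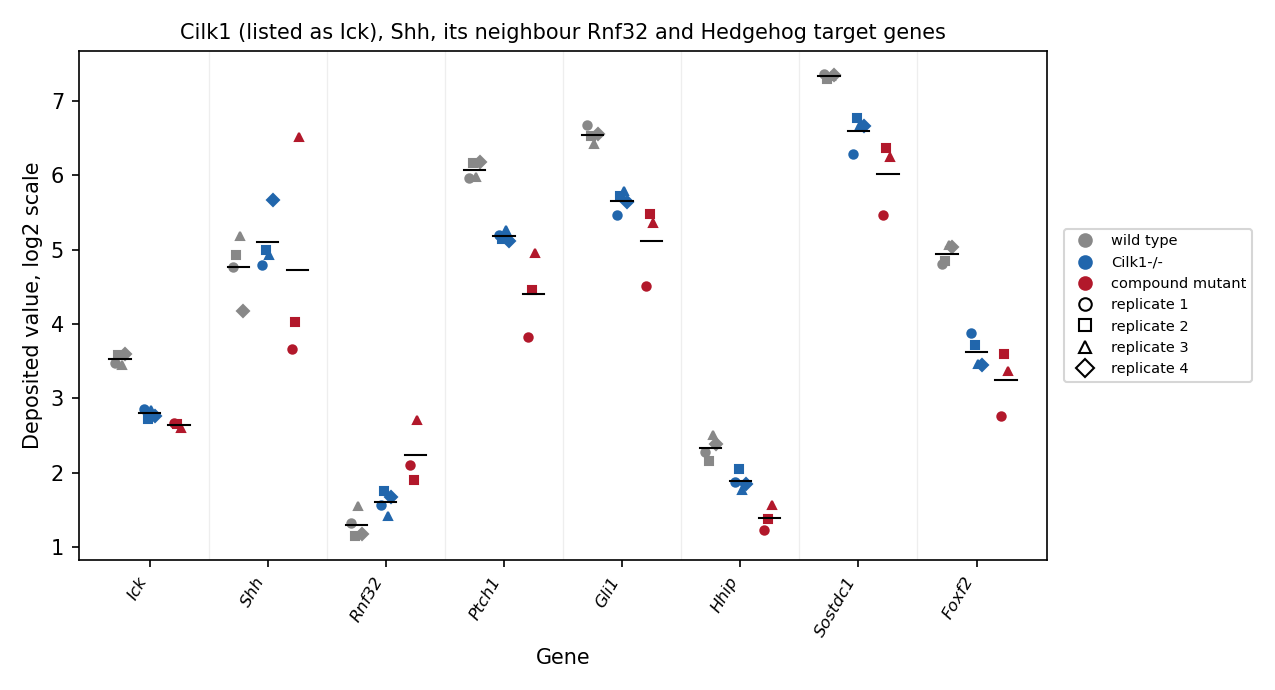
Deposited log2 values of *Ick*, *Shh*, *Rnf32* and 5 Hedgehog target genes in every library, coloured by genotype, with the replicate number as the symbol and the genotype mean as a bar. Compound mutant *Shh* ran from 3.66 to 6.51, and the 3 genotypes did not overlap for *Ptch1*, *Hhip* and *Ick*.

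Of the 16 Hedgehog targets listed, 0 were called in either direction in limma, with or without replicate 1. At an unadjusted p under 0.05 with no minimum fold change, 4 were lower and 0 higher, where 12.3% of all genes were lower and 10.9% higher. Without replicate 1 the counts were 4 and 1, where 11.7% of all genes were lower and 8.61% higher. Their median difference was -0.16, -0.02 without replicate 1 and -0.22 without replicate 3. Among the 8 ligand and release genes and the 14 genes of reception and transduction none was called either. *Scube1*, a secreted factor that helps to release Hedgehog ligand, was 4.09, 3.78 and 4.68 against 3.46 to 3.68 (0.61, adjusted p = 0.0684). *Gli3*, the main repressor of the pathway, was 3.94, 4.39 and 4.13 against 4.43 to 4.56 (-0.33, adjusted p = 0.0856). The 18 cilium genes had 0 calls and a median difference of -0.04.

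The genes called lower both times included *Inhba*, *Dkk2*, *Fgf7* and *Fgf2*, each of which encodes a secreted protein. Other secreted signals were not called, among them *Bmp4* (-0.02), *Wnt5a* (0.07) and *Fgf3* (0.22). *Inhba* (chr13:16011851-16031621), which encodes the activin A subunit made by dental mesenchyme, was 4.10, 4.62 and 4.38 against 5.13, 5.27, 5.38 and 5.11. All compound mutant libraries lay below all *Cilk1*-/- libraries and below wild type (4.89 to 5.25), and *Inhba* fell by 0.86 on the log2 scale (SE 0.123, adjusted p = 0.0101; -0.73 without replicate 1, adjusted p = 0.0176). *Dkk2* (chr3:132085292-132180304), a secreted modulator of Wnt signalling, was 3.36, 3.60 and 3.02 against 3.97, 4.31, 4.38 and 4.19. It fell by 0.89 (SE 0.137, adjusted p = 0.0125; -0.90 without replicate 1, adjusted p = 0.0245). *Fgf7* (chr2:126034658-126091185), a mesenchymal growth factor that acts on epithelium, was 1.24, 1.45 and 1.05 against 1.84 to 1.94, and fell by 0.63 (SE 0.0881, adjusted p = 0.00933). *Fgf2* (chr3:37348346-37410108), another fibroblast growth factor, was 1.39, 1.21 and 1.45 against 2.12 to 2.26, and fell by 0.84 (SE 0.0778, adjusted p = 0.00405). The wild-type libraries held *Fgf2* at 1.68 to 1.88, between the 2 mutants, and *Fgf7* at 1.79 to 1.92, level with *Cilk1*-/-.

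The dental mesenchyme list held 1 lower gene, *Inhba*, among 18, and 0 higher genes, the same count without replicate 1, with a median of -0.14. Over all genes, 0.388% were called lower, and 0.358% without replicate 1. *Runx2*, a transcription factor of tooth and bone mesenchyme, was 4.83, 5.35 and 4.96 against 5.46 to 5.65. Its difference of -0.50 had an adjusted p of 0.0417 but was below the minimum fold change. The Wnt feedback list likewise held 1 lower gene, *Dkk2*, among 20 and 0 higher genes, the same count without replicate 1. Its other members included *Dkk1*, a Wnt inhibitor, at 4.26, 3.55 and 4.20 against 3.06 to 3.41 (0.71, adjusted p = 0.0828), and *Lgr5*, a receptor for R-spondins, at 4.14, 3.56 and 2.67 against 3.64 to 4.15 (-0.47, adjusted p = 0.331). The list median was -0.09 with all libraries and 0.18 without replicate 1, so its sign depended on that library. The 8 Wnt ligand genes had 0 calls.

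Other genes that were lower both times are given singly. *Chodl*, a membrane lectin, was 2.50, 3.78 and 3.38 against 4.53 to 4.83, and fell by 1.42 (SE 0.23, adjusted p = 0.0148; -1.06 without replicate 1, adjusted p = 0.00587). *C1qtnf3* (chr15:10952332-10980150), a secreted protein of the C1q and TNF family, was 5.24, 5.05 and 5.41 against 5.89, 6.35, 6.49 and 6.50, and fell by 1.08 (SE 0.145, adjusted p = 0.00915). *Krt15*, a keratin of basal epithelial cells, was 5.78, 5.59 and 6.02 against 6.57 to 7.02, and fell by 1.06 (SE 0.148, adjusted p = 0.00933). Both differences held their size without replicate 1, at -1.08 and -1.05. *Lepr*, the leptin receptor, was 2.60, 2.80 and 3.19 against 3.74 to 4.15 (-1.06, adjusted p = 0.00915). *Aspn*, a small leucine-rich matrix proteoglycan, was 6.02, 5.65 and 6.16 against 6.45 to 6.95 (-0.85, adjusted p = 0.0191). *Calca*, which encodes calcitonin and its gene-related peptide, was 3.09, 4.0 and 3.17 against 4.37 to 4.76 (-1.09, adjusted p = 0.0234).

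The wild-type levels of these genes were not alike. *C1qtnf3* was 5.03 to 5.33, *Aspn* 5.88 to 6.19 and *Calca* 3.66 to 4.02 in wild type, and these ranges overlapped those of the compound mutant. In numbers, *C1qtnf3* was 1.08 higher in *Cilk1*-/- than in wild type and *Aspn* was 0.76 higher, against differences of -1.08 and -0.85 from *Cilk1*-/- to the compound mutant. For *Calca* these values were 0.70 and -1.09. These pairs of values rest on one set of *Cilk1*-/- libraries and are not independent. *Inhba*, *Chodl*, *Krt15* and *Lepr*, by contrast, were lower in the compound mutant than in both other groups. In wild type, *Chodl* was 4.22 to 4.44, *Krt15* 6.07 to 6.57 and *Lepr* 3.55 to 3.86. Replicate 4 was the one *Cilk1*-/- library in the label set of the compound mutant. Against that library, the compound mutant mean differed by -0.75 for *Inhba*, -0.87 for *Dkk2*, -0.77 for *Fgf2*, -1.37 for *Chodl* and -1.26 for *C1qtnf3*. These genes did not overlap between the groups, so the signs were given by the choice of genes, and the values rest on 1 library. With the label set as a term, their adjusted p in limma were 0.147, 0.176, 0.0709, 0.197 and 0.147, in the same order.

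Higher genes were fewer. *Pcolce2*, which enhances the processing of procollagen, was 2.97, 2.77 and 2.46 against 1.61 to 1.93, and rose by 0.95 (SE 0.123, adjusted p = 0.00915; 0.84 without replicate 1, adjusted p = 0.014). *Rpl34*, a ribosomal protein gene, was 6.53, 6.55 and 6.91 against 5.67 to 6.10, and rose by 0.73 (SE 0.112, adjusted p = 0.0121; 0.80 without replicate 1). *Gm7120*, a gene of unassigned function, was 3.77, 3.99 and 3.47 against 2.50 to 3.0, and rose by 1.02 (SE 0.159, adjusted p = 0.0127). The uncharacterized *2900009J06Rik* was 1.36, 1.55 and 1.75 against 0.71 to 1.05 (0.63, adjusted p = 0.0132). *Cyfip2*, a regulator of actin branching, was 4.08 in replicate 1 and 2.89 and 3.12 in the others, against 2.31 to 2.45. It was called with replicate 1 (0.95, adjusted p = 0.0439) and without it (0.60, adjusted p = 0.0122). Of the 11 fits that each left out 1 library, only 3 called *Cyfip2*.

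**Figure D2:**
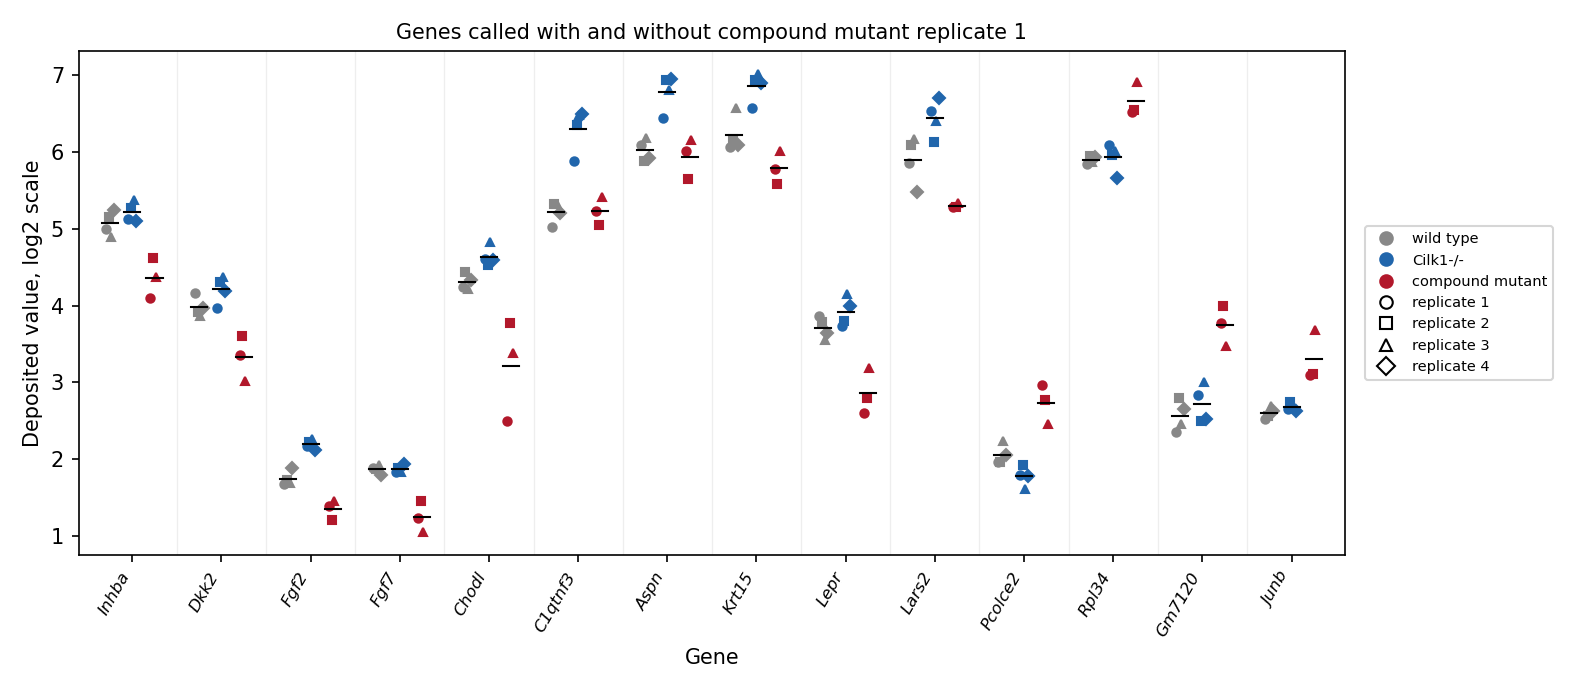
Deposited log2 values, in every library, of 14 genes called both with and without compound mutant replicate 1. The first 10 genes were lower and the last 4 higher in the compound mutant, and the compound mutant and *Cilk1*-/- libraries did not overlap in any of the 14. This follows from the choice of called genes, since 90 of the 91 genes called with all libraries did not overlap. Over all genes, 9.3% were lower and 7.74% higher without overlap.

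Immediate early genes, which are transcribed within minutes of a stimulus and also during tissue handling, held 1 higher gene among 14 with all libraries and 3 without replicate 1. Over all genes, 0.155% were called higher, and 0.143% without replicate 1. *Junb* was 3.10, 3.11 and 3.69 against 2.63 to 2.75 (0.62, adjusted p = 0.0322; 0.72 without replicate 1). Of the 11 fits that each left out 1 library, only 3 called *Junb*. *Egr1* was 3.20, 4.05 and 4.52 against 2.65 to 3.30, so that replicate 1 overlapped *Cilk1*-/-, and it was called only without that library (1.0, adjusted p = 0.0795, and 1.36 without replicate 1, adjusted p = 0.0218). *Ier2* was 4.61, 4.82 and 4.89 against 4.17 to 4.34 and 4.58 to 4.83 in wild type, with a difference of 0.54 (adjusted p = 0.0101) that was under the minimum fold change with all libraries and 0.62 without replicate 1. The list median was 0.45, and 0.46 without replicate 1. The part of tissue handling in these values was not tested.

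Without replicate 1, further genes were called. *Bmp2*, a signal of the enamel knot, was 2.77, 2.80 and 3.80 against 2.10 to 2.43. All compound mutant libraries were above all *Cilk1*-/- libraries, at 0.86 with all libraries (adjusted p = 0.0552) and 1.03 without replicate 1 (adjusted p = 0.0439), and the difference was 0.52 without replicate 3, the library with the highest level. It was the 1 higher gene of the 18 enamel knot genes without replicate 1, where 0.143% of all genes were called higher. With all libraries, 0 of the enamel knot genes were called. *Cdkn1a*, the cell cycle inhibitor of the enamel knot, was 5.28, 4.50 and 4.93 against 3.89 to 4.31 and was not called either time (0.86, adjusted p = 0.0522; 0.67 without replicate 1, adjusted p = 0.114). *Sgms2*, a sphingomyelin synthase, was 2.15, 2.90 and 2.86 against 1.53 to 2.25 (1.05 without replicate 1, adjusted p = 0.0437). *Scg2*, a secretory granule protein, was 1.88, 1.55 and 0.57 against 1.99 to 2.84 (-1.35 without replicate 1, adjusted p = 0.0439). *Pfkfb3*, a regulator of glycolysis, was 3.07, 3.74 and 3.39 against 2.82 to 3.01 (0.65 without replicate 1, adjusted p = 0.015). It was the 1 call among 15 genes of hypoxia and glycolysis, where 0.143% of all genes were called higher.

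Skeletal muscle genes were the list with the most lower calls with all libraries (3), while without replicate 1 the list held 1, as did the Wnt feedback and dental mesenchyme lists. *Actc1*, cardiac alpha-actin, which embryonic skeletal muscle also makes, was 0.86, 1.11 and 1.06 against 4.10, 2.71, 2.84 and 3.80. It fell by 2.35 (SE 0.419, adjusted p = 0.0223; -2.28 without replicate 1, adjusted p = 0.0443). *Acta1*, skeletal alpha-actin, was 0.51, 0.70 and 0.99 against 1.79 to 3.10 (-1.71, adjusted p = 0.0417), and *Myh3*, the embryonic myosin heavy chain, was 0.53, 0.56 and 0.69 against 1.69 to 2.67 (-1.52, adjusted p = 0.0318). Without replicate 1 these 2 had adjusted p of 0.0856 and 0.0599. Of the 17 muscle genes measured, 3 were called lower (1 without replicate 1) and 0 higher, with a median of -0.83 (-0.77 without replicate 1). Over all genes, 0.388% were called lower (0.358% without replicate 1). Of the 17, 15 did not overlap between the groups, where 9.3% of all genes were lower and 7.74% higher without overlap. Without replicate 1, 15 again did not overlap, where 14.3% of all genes were lower and 10.9% higher without overlap. Turned back from the log2 scale, the summed muscle level was 14 to 17.7 in the compound mutant, 35.5 to 95 in *Cilk1*-/- and 17.9 to 53.5 in wild type, and none of the markers was at 0 in all compound mutant libraries. The amount of muscle dissected with the germs was not tested.

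Apart from skeletal muscle and dental mesenchyme, the cell type lists had 0 calls in limma, with and without replicate 1, although some libraries stood apart. The summed cartilage level was 952 in replicate 1, and at most 146 in the other compound mutant libraries and 104 in *Cilk1*-/-. The median difference of the 10 cartilage genes fell from 1.44 to 0.34 when replicate 1 was left out, and that of the 15 neuronal genes from 0.59 to 0.04. The summed level of oral keratinization genes was 225 to 642 in the compound mutant against 538 to 659 in *Cilk1*-/-. Among them *Krt13* was 1.99, 2.16 and 6.03 against 4.58 to 6.04 (-2.06, adjusted p = 0.198). The dental epithelium list summed to 784 to 1450 in the compound mutant and 1130 to 1390 in *Cilk1*-/-. The dental mesenchyme list summed to 754 to 1200 against 1030 to 1180, and its *Tfap2b* was 4.21, 5.65 and 4.21 against 5.28 to 5.67. Macrophage, endothelial, Schwann cell and bone lists had medians of -0.07, 0.08, 0.14 and 0.18. Since epithelial and mesenchymal markers differed between the compound mutant libraries, the share of each tissue in the *Shh* and target values was not tested.

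**Figure D3:**
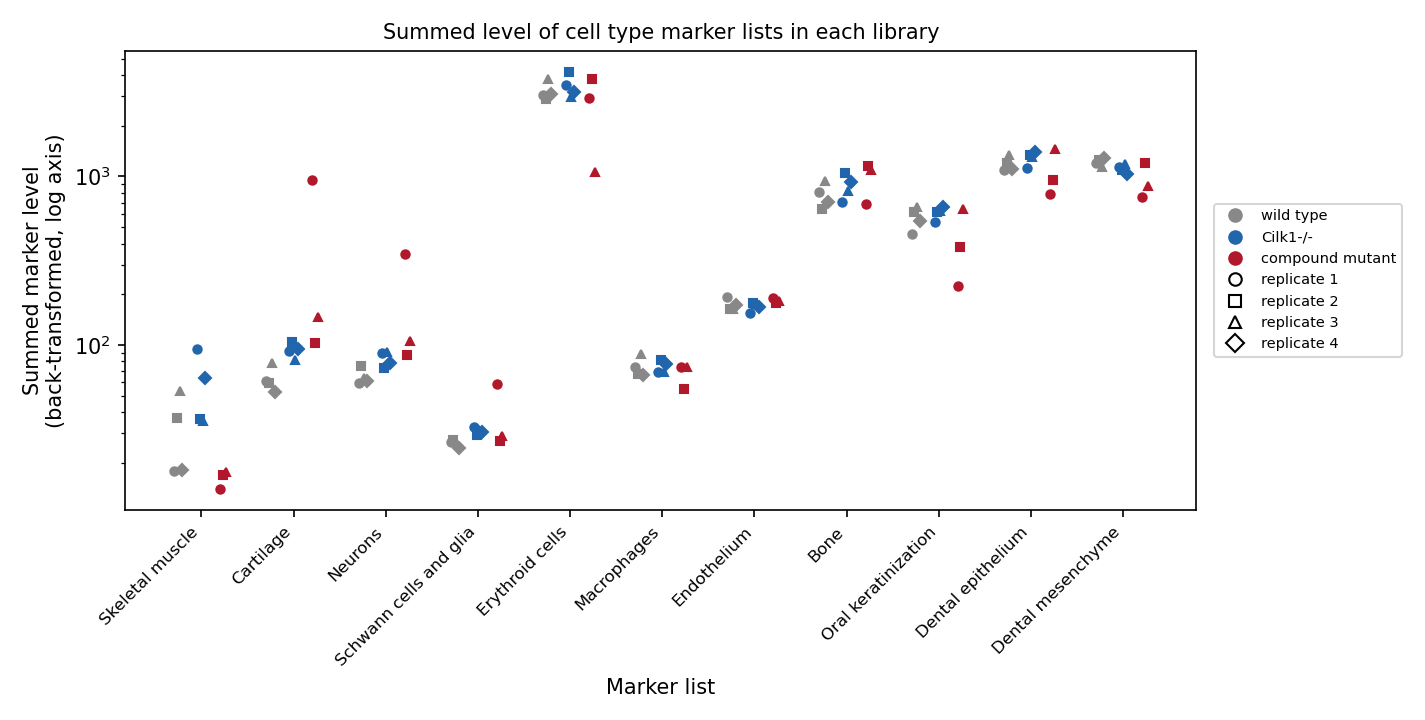
Summed level of 11 marker lists in each library, turned back from the log2 scale, on a log axis, coloured by genotype with the replicate number as the symbol. Compound mutant replicate 1 stood at 952 for cartilage, and the 3 compound mutant libraries lay at 14 to 17.7 for skeletal muscle, below every *Cilk1*-/- library.

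**Figure D4:**
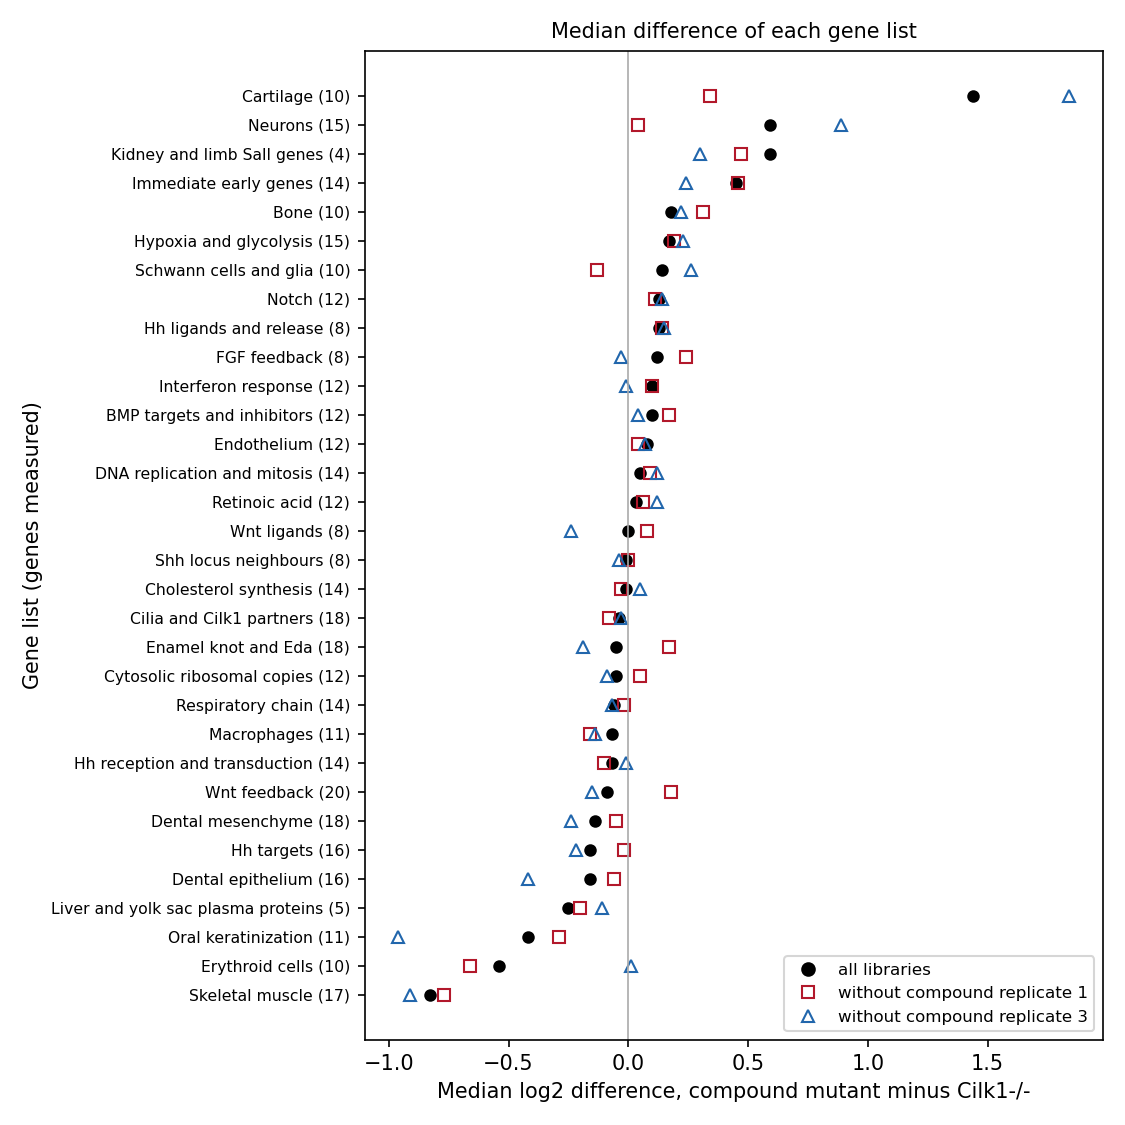
Median log2 difference, compound mutant minus *Cilk1*-/-, of each of the 32 gene lists, with all libraries (black dots), without compound mutant replicate 1 (red squares) and without replicate 3 (blue triangles). Skeletal muscle was lowest with all libraries, at -0.83, and the cartilage median dropped to 0.34 without replicate 1.

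The remaining lists gave 0 calls with and without replicate 1, apart from the Sall genes and the ribosomal copies. They covered the neighbours of *Shh*, respiratory chain, cholesterol synthesis, replication and mitosis, interferon response, BMP, FGF, Notch and retinoic acid genes, and liver and yolk sac proteins, with medians between -0.25 and 0.13. *Sall1*, a zinc finger transcription factor, was 2.94, 1.58 and 2.47 against 1.07 to 1.42 (1.10, adjusted p = 0.0457; 0.80 without replicate 1, adjusted p = 0.0823).

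The largest differences among the called genes were in a pair of ribosomal gene copies. *Rps27* was 8.16, 4.25 and 8.53 against 2.46 to 3.81 (3.77, adjusted p = 0.0448), while *Rps27rt* was 6.05, 8.97 and 6.34 against 9.41 to 9.77 (-2.48, adjusted p = 0.0426). Replicates 1 and 3 differed from replicate 2 in both genes and in opposite directions, and neither was called without replicate 1 (adjusted p = 0.101 and 0.0877). *Rps27* lies on chromosome 3 (coding part chr3:90212728-90213615, minus strand, 4 coding exons) and *Rps27rt*, an intronless copy, on chromosome 9 (chr9:114982456-114982707, minus strand, 1 coding exon). Their annotated coding sequences (GENCODE vM21, GRCm38) were identical over all 252 bases, so reads from this part cannot be assigned to either gene by sequence, apart from spliced alignment across the introns of *Rps27*. The shared sequence is shown to make this plain, with the bases on either side of the 3 exon junctions of *Rps27* in capitals.
Rps27 and Rps27rt: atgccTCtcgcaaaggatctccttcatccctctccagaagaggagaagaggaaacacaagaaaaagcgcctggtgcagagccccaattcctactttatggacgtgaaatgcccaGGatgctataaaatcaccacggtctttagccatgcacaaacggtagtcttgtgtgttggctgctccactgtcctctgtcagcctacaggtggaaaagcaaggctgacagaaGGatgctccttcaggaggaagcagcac

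Other genes with close copies also differed between the compound mutant libraries. *Eif3j1* was 3.69 in replicate 1 and 0.32 to 1.30 in the other 10 libraries, while its copy *Eif3j2* was 0.73 in replicate 1 and 4.14 to 4.89 elsewhere. *Gm9855* was 0.53 in replicate 2 and 2.95 to 4.90 elsewhere, and it was called only without replicate 1 (-2.61, adjusted p = 0.0442). *Rps27a* (9.30, 9.44 and 8.30 against 7.64 to 8.10; 1.09, adjusted p = 0.0496), *Oaz1* (6.88, 7.11 and 6.82 against 5.46 to 6.34; 0.92, adjusted p = 0.0458) and *Plac9b* (2.95, 1.81 and 2.62 against 1.34 to 1.75; 1.0, adjusted p = 0.0448) were called with all libraries and not without replicate 1. *Gm2897* was 0.80, 1.54 and 1.23 against 0.52 to 0.58 and was called both times, but in only 2 of the 11 fits that each left out 1 library. How the read counter shared reads between such copies is uncertain, and these values are given with that limit.

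**Figure D5:**
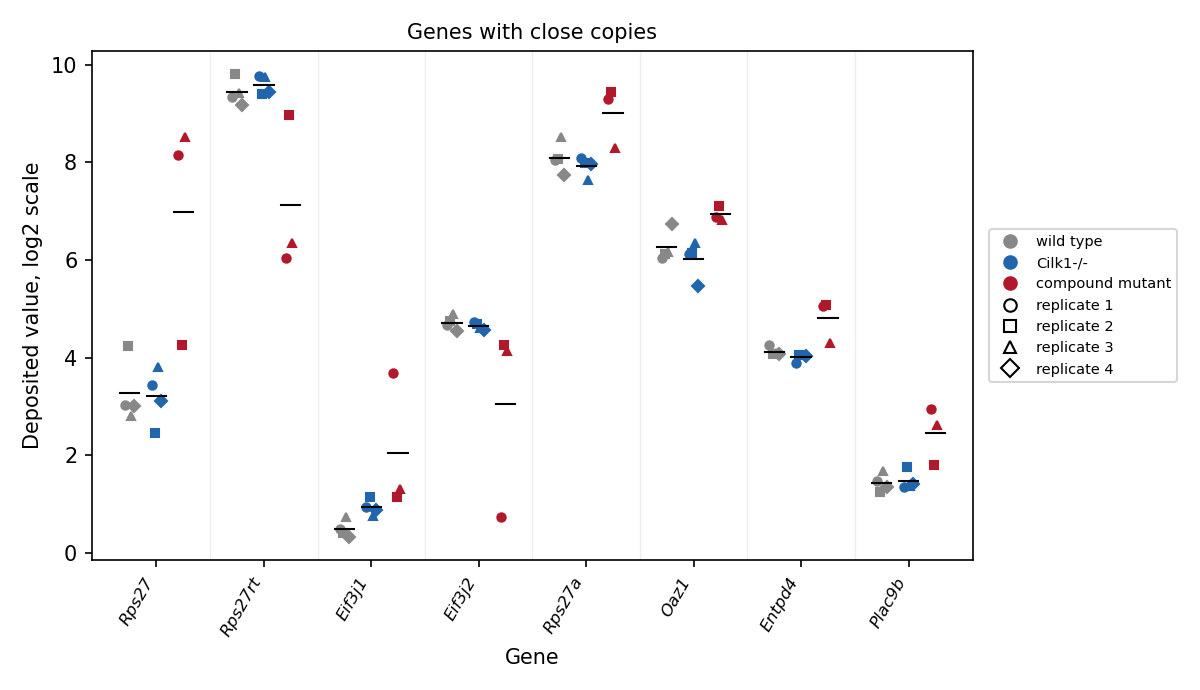
Deposited log2 values of 8 genes with close copies in every library, coloured by genotype with the replicate number as the symbol. *Rps27* and *Rps27rt* ran in opposite directions in compound mutant replicates 1 and 3, and *Eif3j1* and *Eif3j2* in replicate 1.

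*Rn45s*, the ribosomal RNA precursor, was 7.98, 7.96 and 8.16 against 8.68 to 9.08 (-0.93, adjusted p = 0.0101), and *Lars2*, the mitochondrial leucyl-tRNA synthetase gene, was 5.29, 5.28 and 5.34 against 6.13 to 6.71 (-1.15, adjusted p = 0.0101). Wild type held them at 8.25 to 8.75 and 5.48 to 6.17. Since the libraries were made from poly-A RNA, *Rn45s* also reflects how much ribosomal RNA remained, and its part in the result was not tested.

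Of the 65 lower genes, 12 were small RNA rows, 9 of them microRNAs, as was 1 of the 26 higher genes. That is 18.5% of the lower and 3.85% of the higher calls, where small RNA rows were 412 of the 16755 rows of the table (2.46%) and microRNA rows 315 (1.88%). Without replicate 1, 10 small RNA rows were lower and 3 higher, of which 6 and 2 were microRNAs. Such rows count fragments of longer RNA over the hairpin, so they do not measure mature microRNA. *Mir335*, within *Mest*, was 0.02, -0.01 and -0.01 in the compound mutant, that is, listed at about 0, against 0.63 to 0.73 in *Cilk1*-/- and 0.13 to 0.24 in wild type (adjusted p = 0.000113; 0.000525 without replicate 1). Its host *Mest*, an imprinted gene of growing mesenchyme, was 8.23, 8.25 and 8.07 against 8.51 to 8.75 (-0.48, adjusted p = 0.0322), under the minimum fold change. *Mir377*, within the non-coding RNA *Mirg*, was 0.74, -0.01 and 0.04 against 1.31 to 1.69 (adjusted p = 0.00933), while *Mirg* itself was 4.16, 3.69 and 3.04 against 3.49 to 3.60 (0.07, adjusted p = 0.873). *Mir483*, within *Igf2*, was called only without replicate 1 (2.60, 1.40 and 1.48 against 2.24 to 2.66; adjusted p = 0.0122). All 13 microRNA rows called with or without replicate 1 matched RefSeq entries (GRCm38.p6), which hold 24 mature sequences with 24 different seeds, so no seed is shared. Those of the 2 rows called both times with the lowest adjusted p or largest difference are given, with the seed (bases 2 to 8) in capitals.
miR-335-5p (chr6:30741314-30741336, plus strand): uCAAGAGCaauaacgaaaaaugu
miR-335-3p (chr6:30741354-30741375, plus strand): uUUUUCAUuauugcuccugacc
miR-377-5p (chr12:109740515-109740536, plus strand): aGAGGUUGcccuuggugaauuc
miR-377-3p (chr12:109740553-109740574, plus strand): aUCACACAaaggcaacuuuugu

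*Gria2*, a glutamate receptor subunit, completed the 8 lowest genes. It was 1.46, 2.09 and 2.52 against 2.87 to 3.68 and fell by 1.26 (SE 0.25, adjusted p = 0.0318), and was not called without replicate 1 (-0.98, adjusted p = 0.0523). Wild type held *Gria2* at 2.04 to 2.56, which overlapped the compound mutant. The *Cilk1*-/- mean was 0.96 above the wild-type mean.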

How the data were processed

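RNA of the tooth germs was sequenced by the authors, mapped to mm10 with HISAT2 2.0.5 and counted with featureCounts 1.5.0-p3. The deposited values are on a log2 scale, and the step that made them is not given in the sources used here. Counts were not used, the depth of each library is unknown, and no count-based interval could be given. Tests used limma 3.58.1 in R 4.3.3 (lmFit, eBayes with trend and robust) in one fit of the 11 libraries by genotype, with the contrast compound mutant minus *Cilk1*-/-, and with the Benjamini-Hochberg adjustment over 16755 genes. The fit was tested on simulated data and repeated without compound mutant replicate 1. The simulated libraries were independent, with the same spread per gene in all genotypes, unlike the deposited ones. The simulation therefore cannot tell how reliable the calls in these data are. The named genes were the 8 largest differences in each direction among called, non-overlapping genes of each fit, the genes central to the study, and up to 4 members of each list. Other genes named, among them *Fgf2*, *Fgf7*, *Aspn*, *Calca*, *Lepr*, *Krt15*, *Rn45s*, *Mir335*, *Mest*, *Mirg* and the *Eif3j* copies, were chosen after their values were seen. Members and lists were chosen with earlier results of these data known. Of 508 genes tabulated, 503 matched GENCODE vM21 by symbol. Alternatives covered the samples, thresholds, covariates, pseudocount, low-value filter and normalization.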

Additional observations from a re-analysis of the deposited data

Results flagged for a closer look

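Of 128 groups of 4 libraries (64 genes in *Cilk1*-/- and in wild type), 10 held a library far from the other 3. Chance gives about 1 in 20 for independent groups. The *Cilk1*-/- and wild-type values of a gene do not vary independently here, so the count cannot be weighed against that rate. In *Cilk1*-/-, these were *Rn45s* in replicate 2 (8.68, next value 9.03), *Cyfip2* in replicate 3 (2.31, next 2.43), *Dkk1* in replicate 3 (3.06, next 3.36) and *Entpd4* in replicate 1 (3.89, next 4.03). In wild type, these were *Rps27* in replicate 2 (4.23, next 3.02), *Oaz1* in replicate 4 (6.74, next 6.16), *Mir483* in replicate 1 (2.46, next 2.05), *Bmp2* in replicate 3 (2.34, next 2.12), *Gm2897* in replicate 1 (0.62, next 0.54) and *Entpd4* in replicate 1 (4.25, next 4.09). The compound mutant, with 3 libraries, was not tested in this way.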

How the results depend on the processing

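In the compound mutant against *Cilk1*-/-, 65 genes were lower and 26 higher, and 60 and 24 without compound mutant replicate 1. With only the 2 genotypes in the fit these counts were 1 and 0, and 2 and 0 without replicate 1. With the label set as a term they were 1 and 0, and 5 and 4. With one weight per genotype, an alternative chosen after seeing the data, they were 1 and 0, and 1 and 1. With no minimum fold change they were 360 and 198, and 247 and 156. With an unadjusted p under 0.05 and a 1.5-fold minimum they were 163 and 187, and 154 and 72. A pseudocount of 0.1 gave 216 and 78, and 194 and 53. In genes with a mean of at least 1, the higher counts were 16 and 15. Other scalings and moderation without trend and robust left all counts within 1.5 times.

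With the replicate number as a block, 2 genes were lower (*Mir335* and *Krt15*) and 0 higher, with 161 and 125 at an unadjusted p under 0.05 with that minimum, and 3 and 0 without replicate 1. Same-numbered compound mutant and *Cilk1*-/- libraries had deviations correlated at 0.0303, 0.0392 and -0.117 over genes, and no compound mutant library correlated best with its own number, so the numbers were not taken as pairs. The highest correlations of compound mutant replicates 1 to 3 were 0.16, 0.255 and 0.532, with *Cilk1*-/- replicates 3, 1 and 4. Of these, *Cilk1*-/- replicate 4 shares the label set of the compound mutant, and the part of the label set was not tested.

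Leaving out each library in turn gave 29 to 247 lower and 4 to 224 higher genes. The counts were 136 and 224 without compound mutant replicate 2, and 247 and 113 without replicate 3. They were 54 and 9, 35 and 10, 29 and 7, and 33 and 4 without *Cilk1*-/- replicates 1 to 4, and 48 and 12, 40 and 8, 47 and 9, and 43 and 8 without wild-type replicates 1 to 4. Of the 47 genes called with and without compound mutant replicate 1, 31 to 44 were called in each of the other 10 fits.

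Among the 144 genes named by the rule, 23 were called, and none of those changed direction under any alternative. Many alternatives keep the group means, and called genes mostly did not overlap between groups, so the direction could hardly change. All 23 lost their call with only the 2 genotypes in the fit and with the label set as a term. The same held with one weight per genotype and with the replicate number as a block. Of 64 list medians taken without compound mutant replicate 1 or 3, 59 moved by no more than the SD between compound mutant libraries. Leaving out 1 of 3 values moves their mean by less than their SD. The count was thus nearly fixed in advance and does not show that the medians are stable. Without replicate 1, the cartilage median fell from 1.44 to 0.34 and the neuronal median from 0.59 to 0.04. The count tools could not be applied, since the table holds no counts. The cause of the differences between fits was not tested.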
